A study of Mus musculus with 96 samples.

Results

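Solute carriers are the membrane proteins that move sugars, amino acids, nucleosides, metals, vitamins and other small molecules into cells and between their compartments. Their genes carry symbols that begin with Slc, followed by the number of a family, the letter a and the number of a member. Described here are 139 of them in single erythroid progenitors of mouse fetal liver, chosen by their level, which had to reach 10 counts per 1000000 reads (CPM) in the summed cells of at least 1 of 4 sort gates. The table of 49466 gene rows held 368 with such a symbol after the 7 genes and the pseudogenes that the rule leaves out, and 236 of these had a read in a kept cell. Left out by the rule were Slc4a1, Slc11a2, Slc25a28, Slc25a37, Slc25a38, Slc25a39 and Slc40a1, most of them carriers of iron or of intermediates of heme synthesis, with the anion exchanger of the red cell membrane. Of the 139 genes, 94 were at 10 CPM or more in every gate and 45 in 1 to 3 gates, among them 16 in BFUE alone. Just inside the threshold stood Slc25a30 with 10.35 CPM in its highest gate, Slc25a53 with 10.74 and Slc25a40 with 10.97. Just outside stood Slc25a14 with 9.72 CPM and Slc37a3 with 9.93.

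Cells came from livers of C57/Bl6J embryos at day 14.5, depleted of cells that carry CD3e, CD45R, Ly-6G, CD11b, Ter119, Sca-1, CD16/32 or CD41, and were sorted singly into 96 wells of 1 plate for Smart-seq2, which copies polyadenylated RNA along its whole length. The 4 gates were set by antibodies to Kit (CD117), CD71 and CD24 and hold 24 wells each. They are BFUE, named for the burst-forming unit, an early committed red cell progenitor, then 2 intermediate gates named for 25 to 35% and for 50 to 60% of CD71/CD24 expression, here the lower and the upper intermediate gate, and CFUE, named for the later colony-forming unit. The labels give the strain and the gate and name no treatment or altered allele for any group. Neither animals nor pools are named, so each gate counts as 1 sample. Differences between gates therefore have no replicate check and no test, and the intervals given are exact 95% intervals of counting error only, from reads without molecular identifiers. Each gate filled 3 neighbouring plate columns, and effects of plate position and of gate cannot be told apart.

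Dividing red cell progenitors take up glucose, amino acids, folate and nucleosides for growth, and they prepare for hemoglobin synthesis, which needs iron, glycine and the export and import of intermediates across the mitochondrial membranes. Mature human red cells are known for an abundant glucose carrier, an equilibrative nucleoside carrier, a urea carrier and a lactate carrier in their membrane. Zinc, manganese, copper and magnesium reach the cytosol through importers of the Slc39, Slc31 and related families. Slc30 exporters carry zinc out of it, and Slc30a10 carries manganese. Mitochondrial carriers of the Slc25 family exchange ADP for ATP and move phosphate, citrate, amino acids and cofactors.

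The kept cells numbered 23 in BFUE, 21 in the lower intermediate gate, 24 in the upper one and 23 in CFUE, with 947458 to 3785903 reads per cell and 31059327 to 38184231 per gate, and 5 wells of 10596 to 16644 reads were left out. The solute carrier genes together took 1.09% of reads in BFUE and 1.24 to 1.29% in the other gates. Gate identity was checked on 6 erythroid genes, whose summed level was 1032 CPM in BFUE and 2837 CPM in CFUE. Within BFUE, 8 of the 23 cells stood apart with 1035.6 to 2202 CPM of Cd34, a surface protein of stem and multipotent cells, against at most 5.16 CPM in any other kept cell. In these 8 cells the erythroid list stood at 89.3 CPM, against 1462 in the other 15. In a neutrophil and monocyte list 6 of 9 genes had reads and 4 reached 10 CPM, summing to 2853 CPM against 39.4. Mpo, a gene of this list, alone made up 2366 CPM of the sum, against 13.58 in the other 15. A list of 9 stem and multipotent genes summed to 3364 CPM against 79.3. It includes Cd34 itself, by which the 8 cells were picked, at 1404 against 1.56 CPM, so part of this difference is built in. A list of 7 lymphoid genes (Dntt and Cd3e at 0) summed to 814.5 CPM against 1.41. Only 2 of the 7 reached 10 CPM in the Cd34-high cells. The 6 endothelial and stromal genes, of which 2 had reads in the Cd34-high cells, summed to 201 CPM against 13.2. Markers of 2 other cell types were also higher in BFUE and were not confined to its Cd34-high cells. The 6 megakaryocyte genes, Pf4 at 0 among them, summed to 324 CPM in the Cd34-high cells and to 261 CPM in the other 15, which ranged from 0.62 to 1442 CPM, and to 13.07, 19.55 and 24.9 CPM in the later gates in order. The 9 hepatoblast genes, all with reads, summed to 245 CPM in the Cd34-high cells, 248 CPM in the others, which ranged from 13.47 to 1587 CPM, and 90.99 to 152.5 CPM in the later gates. Single cells weigh on these sums. The median Cd34-high cell was at 185 CPM of the megakaryocyte genes and 231 CPM of the hepatoblast genes, against 75.7 and 153 CPM in the other 15. Leaving out the Cd34-high cells does not remove these 2 sets of markers, and the part of these markers in ratios to BFUE was not tested. The Cd34-high cells hold 31.4% of BFUE reads, so for some genes ratios to BFUE are also given without them. A CFUE cell also stood apart, with 6361 genes read (the next lowest CFUE cell had 7422) and 6826 CPM of solute carrier reads (the next lowest had 11509).

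Sequences before the transcription start are shown for the 4 genes with the largest ratios between CFUE and BFUE among those at 50 CPM or more in CFUE, and for Slc25a45, which was highest in BFUE and nearly without reads in the lower intermediate gate. They are the 250 bases before the start, 5′ to 3′ on the strand of the gene, from the RefSeq table of build GRCm38.p6, whose start can lie inside the gene bounds that other annotations give. Capitals mark words of the GATA factors, searched on both strands as AGATAA with its variant AGATAG and as TGATAA with its variant TGATAG, and the word CCNCNCCC, which KLF factors bind, also on both strands. GATA1 and KLF1 are the main erythroid factors that bind such words. Slc46a3 is shown from chr5:147894816-147895065, minus strand, Slc30a10 at chr1:185454598-185454847, plus strand, Slc26a1 at chr5:108675366-108675615, minus strand, Slc39a8 at chr3:135825407-135825656, plus strand and Slc25a45 at chr19:5877572-5877821, plus strand.
Slc46a3: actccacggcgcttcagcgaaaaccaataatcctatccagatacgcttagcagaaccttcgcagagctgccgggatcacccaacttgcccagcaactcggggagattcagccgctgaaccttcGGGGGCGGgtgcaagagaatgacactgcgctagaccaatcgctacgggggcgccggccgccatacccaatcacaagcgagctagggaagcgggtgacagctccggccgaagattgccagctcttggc
Slc30a10: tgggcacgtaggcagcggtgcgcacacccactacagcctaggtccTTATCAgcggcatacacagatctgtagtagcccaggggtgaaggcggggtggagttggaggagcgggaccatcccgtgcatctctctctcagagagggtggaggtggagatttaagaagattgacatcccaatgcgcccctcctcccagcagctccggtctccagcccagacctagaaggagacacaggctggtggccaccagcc
Slc26a1: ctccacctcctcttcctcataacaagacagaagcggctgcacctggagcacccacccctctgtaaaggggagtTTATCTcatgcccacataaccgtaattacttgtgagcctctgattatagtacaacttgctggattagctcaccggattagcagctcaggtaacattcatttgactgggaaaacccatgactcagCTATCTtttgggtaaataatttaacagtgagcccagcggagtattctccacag
Slc39a8: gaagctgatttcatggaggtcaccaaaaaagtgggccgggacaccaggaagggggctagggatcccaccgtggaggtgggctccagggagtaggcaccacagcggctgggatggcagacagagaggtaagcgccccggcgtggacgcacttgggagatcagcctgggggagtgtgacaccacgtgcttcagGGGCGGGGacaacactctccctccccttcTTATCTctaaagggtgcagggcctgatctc
Slc25a45: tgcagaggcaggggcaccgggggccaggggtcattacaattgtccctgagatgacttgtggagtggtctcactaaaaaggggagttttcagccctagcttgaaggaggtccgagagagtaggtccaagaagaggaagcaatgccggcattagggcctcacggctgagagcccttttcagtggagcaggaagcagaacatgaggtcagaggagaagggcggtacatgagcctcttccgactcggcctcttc
The window of Slc39a8 holds a GATA word 30 bases before the start and a CCNCNCCC word further up. The window of Slc26a1 holds 2 GATA words, that of Slc30a10 1 GATA word, that of Slc46a3 1 CCNCNCCC word and that of Slc25a45 none of the searched words. Slc39a8 and Slc26a1 have 2 starts each in the RefSeq table, of which 1 is shown. The promoter of the other start held neither word in either gene. Of the 139 genes 111 had an entry, with 153 promoters that reach from 250 bases before to 50 after the start. A GATA word stood in 18.95% of these and in 18.3% of the 8832 promoters of all rows at the same level threshold, and the CCNCNCCC word in 75.8 and 67.4%. Promoters of carriers higher in CFUE held a GATA word in 18.4% and those of carriers lower in CFUE in 22.6%, so the shares were close and not ordered with the direction. The words were searched separately, so a base can count for both, and a match describes letters only and no binding.

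Over the whole set, 32 of 139 genes (23.02%) were at least 1.5-fold higher in CFUE than in BFUE and 48 (34.5%) at least 1.5-fold lower. Among all 8856 rows at the threshold the shares were 13.9% higher and 29.5% lower. The classes described below hold 4 to 29 genes each, and their counts are to be read beside these shares. The median ratio was -0.22 on the log2 scale for the carriers and -0.13 for all rows. Of the 94 carriers at 10 CPM or more in every gate, 22 (23.4%) were higher and 17 (18.1%) lower, beside 12.96 and 18.15% of the 6723 rows of that kind. Among the 45 that reached the threshold in some gates only, a set in which a difference is built in, 10 (22.2%) were higher and 31 (68.9%) lower. The 2133 rows of that kind gave 16.9 and 65.5%. In plate rows A to D and E to H taken separately, 25 carriers were higher in both and 30 lower in both, beside 8.15 and 20.7% of all rows. These sets of rows share the gates and the plate and show the spread between cells only. The ratios of the 2 sets differed by a median of 0.58 on the log2 scale over all carriers and by 0.35 over the 64 at 50 CPM or more, and 8 of the 80 carriers past 1.5-fold had opposite directions in them.

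Step by step, 35 carriers were higher and 31 lower in the lower intermediate gate than in BFUE, where all rows gave 10.7 and 24.1%. From the lower to the upper intermediate gate 14 were higher and 29 lower, beside 8.90 and 12.1% of rows. From the upper intermediate gate to CFUE 23 were higher and 19 lower, beside 9.16 and 12.9%. In percent of the carriers with a ratio these counts are 25.2 and 22.3, 10.1 and 21.01, and 16.8 and 13.9. Over the 4 gates, 33 genes stayed within 1.5-fold (rows 39.7%), 17 were higher at every step (rows 6.28%) and 16 lower at every step (rows 11.1%). Another 10 were at least 1.5-fold above both ends in an intermediate gate (rows 3.06%) and 14 at least 1.5-fold below both ends (rows 8.57%). The remaining 49 had a mixed order (rows 31.3%).

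**Figure D1:**
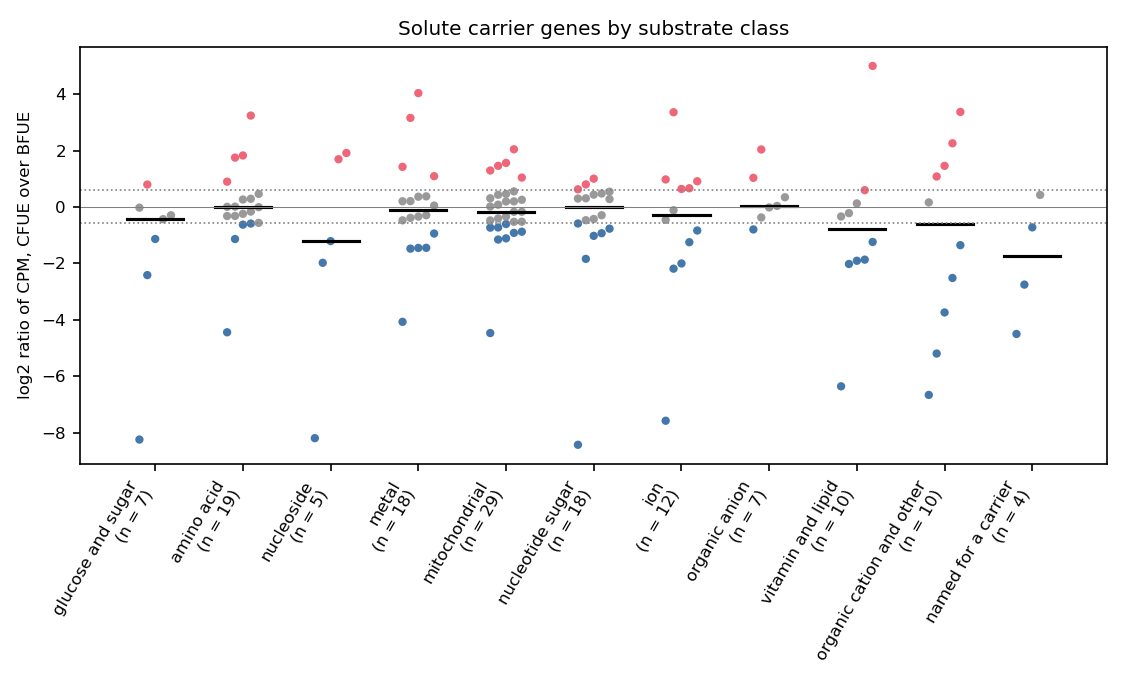
Log2 ratio of CPM in CFUE over BFUE (vertical axis) for each of the 139 genes (points), by substrate class (horizontal axis). Most classes hold points on both sides of the 1.5-fold lines, with Slc46a3 highest at a ratio of 31.98.

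Per kilobase of merged exons, the scale used here to compare genes, the ADP/ATP carrier Slc25a5 stood first in every gate. It went from 984 CPM per kilobase in BFUE to 1218 in CFUE. Merged exons join all annotated transcripts of a gene, so ranks also depend on which exons are annotated. The phosphate carrier Slc25a3, with 159.8 to 199, was next in BFUE and the intermediate gates but below Slc29a1 in CFUE. Both Slc25 genes have near-identical processed copies in the genome, so their counts are uncertain to the extent that reads were split. In BFUE the next were Slc25a4, the other ADP/ATP carrier, at 144 CPM per kilobase, Slc35a4 at 131 and the citrate carrier Slc25a1 at 108. In CFUE the nucleoside carrier Slc29a1 had reached 192 CPM per kilobase, second after Slc25a5 and above Slc25a3 at 169 and Slc25a4 at 86.3, where in BFUE Slc29a1 had been below both with 59.6. By CPM without length, Slc25a3 stayed above Slc29a1 in CFUE, at 938 and 771 CPM, so this change of rank depends on the length used. Among plasma membrane carriers Slc3a2 and the lactate carrier Slc16a1 led in BFUE with 79.3 and 77.5 CPM per kilobase.

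**Figure D2:**
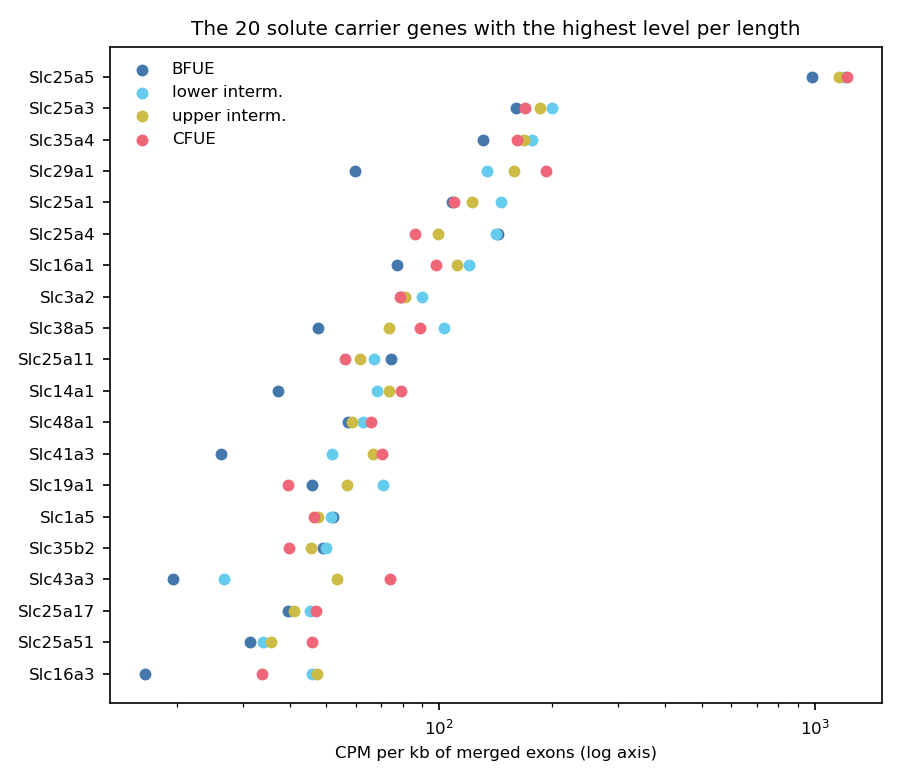
Level per kilobase of merged exons (horizontal log axis, CPM per kb) for the 20 genes with the highest mean over gates, 1 point per gate. Slc25a5 lies apart from the rest, from 984 to 1218 CPM per kb.

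Nucleoside carriers had the largest summed difference of the 10 substrate classes, at 387, 699.5, 893 and 1115 CPM from BFUE to CFUE, a ratio of 2.88 between the ends. Of the 5 genes in the class, 2 were at least 1.5-fold higher in CFUE than in BFUE and 3 at least 1.5-fold lower, beside 13.9 and 29.5% of all rows. The 3 lower ones were at most 31.8 CPM in any gate, near the threshold by which members were chosen. With members at 50 CPM or more, none was lower. Slc29a1, the equilibrative nucleoside carrier of the plasma membrane, made up 70.4% of the class and was at 239 CPM in BFUE, 537 in the lower intermediate, 633 in the upper intermediate and 771 in CFUE. CFUE exceeded BFUE 3.23-fold (95% counting interval 3.15 to 3.31), with 3.13 and 3.29 in the 2 sets of plate rows and 2.71 without the Cd34-high cells. Among BFUE cells the lowest, median and highest were 2.103, 204 and 776 CPM, and among CFUE cells 10.6, 764 and 1307 CPM. The ranges overlapped, but the CFUE cell was the higher of the 2 in 93.95% of cell pairs.

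Slc43a3, a purine nucleobase carrier, followed the same order with 87.6 CPM in BFUE, 119 in the lower intermediate, 239 in the upper intermediate and 329.8 in CFUE, a CFUE to BFUE ratio of 3.77 (95% counting interval 3.62 to 3.91). Its first step was small, 1.36-fold, and its largest lay between the intermediate gates, 2.001-fold, whereas the largest step of Slc29a1 was the first, 2.25-fold. Slc29a2, the second equilibrative carrier, peaked in the lower intermediate gate at 16.9, 31.8, 16.6 and 7.305 CPM in gate order. Slc29a1 therefore exceeded Slc29a2 per length by 10.6 times in BFUE and by 79.5 times in CFUE. The lysosomal carrier Slc29a3 was at 26.8, 10.3, 5.05 and 6.797 CPM. Slc17a9, which loads nucleotides into vesicles, was at 16.6 CPM in BFUE and had only 2 reads in each of the upper intermediate and CFUE gates.

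Among 18 metal carriers, 4 of the 18 were at least 1.5-fold higher in CFUE than in BFUE and 5 at least 1.5-fold lower, and the class sum went from 1081 to 1569.6 CPM. Slc39a8 (chr3:135825279-135888572, GRCm38), an importer of zinc, manganese and iron, was at 41.1 CPM in BFUE, 149 in the lower intermediate, 217 in the upper intermediate and 367 in CFUE. Its CFUE level exceeded that of BFUE 8.92-fold (95% counting interval 8.47 to 9.41), with 8.99 and 8.78 in the 2 sets of plate rows and 8.16 without the Cd34-high cells. The 23 BFUE cells had 0.6399, 25.7 and 217 CPM as lowest, median and highest, and the 23 CFUE cells 144, 388 and 635 CPM. No other carrier separated the ends as well, with the CFUE cell higher in 99.1% of pairs.

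Slc30a10 (chr1:185454848-185468762), an exporter of manganese, was at 7.15 CPM in BFUE, 51.6 in the lower intermediate, 71.7 in the upper intermediate and 117 in CFUE, which is 16.4-fold (95% counting interval 14.5 to 18.6) higher at the end than at the start. Without the Cd34-high cells, in which it was at 0.417 CPM, the ratio was 11.5. A read of it was present in 14 of 23 BFUE cells and in 22 of 23 CFUE cells. An importer and an exporter that both take manganese were thus both higher in later gates. The magnesium carrier Slc41a3 of mitochondria was at 76.5, 151, 194 and 205 CPM, 2.68-fold (95% counting interval 2.57 to 2.798) between the ends and 1.94 without the Cd34-high cells.

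Most other zinc carriers were level or lower. The exception was Slc39a3 at 21.4, 28.04, 28.6 and 45.6 CPM, whose CFUE to BFUE ratios in the 2 sets of plate rows were 3.68 and 0.948. Slc39a10, a plasma membrane zinc importer, was at 38.03, 39.6, 33.7 and 13.7 CPM, so that Slc39a8 was at 0.861 times its level per length in BFUE and at 21.4 times in CFUE. Slc39a11 was at 85.2, 62.4, 39.6 and 31.2 CPM, an inverse ratio of 2.73 (95% counting interval 2.55 to 2.92), but the 2 sets of plate rows gave CFUE to BFUE ratios of 0.711 and 0.157. Slc39a6 was at 46.04, 14.3, 12.4 and 2.74 CPM, and 75.6% of its BFUE reads came from the Cd34-high cells. The exporters Slc30a5, Slc30a6 and Slc30a9 stayed within 1.5-fold over the gates, at 139, 50.1 and 59.2 CPM in BFUE. Slc30a7, which loads zinc into the secretory pathway, was lower at every step, from 43.4 to 22.6 CPM. Slc30a1, the plasma membrane zinc exporter, is no member, with at most 1.46 CPM in a gate. Slc39a7 shares 80.7% of its exon length with an overlapping transcript and is uncertain.

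Copper and heme carriers were level. Slc31a1, the copper importer, was at 118, 147, 160.4 and 152 CPM, with ratios of 0.909 and 2.02 in the 2 sets of plate rows, which differ more than the gates do. Slc48a1, a heme carrier of endosomes and lysosomes, was at 157, 172, 161 and 181 CPM, a ratio of 1.15.

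**Figure D3:**
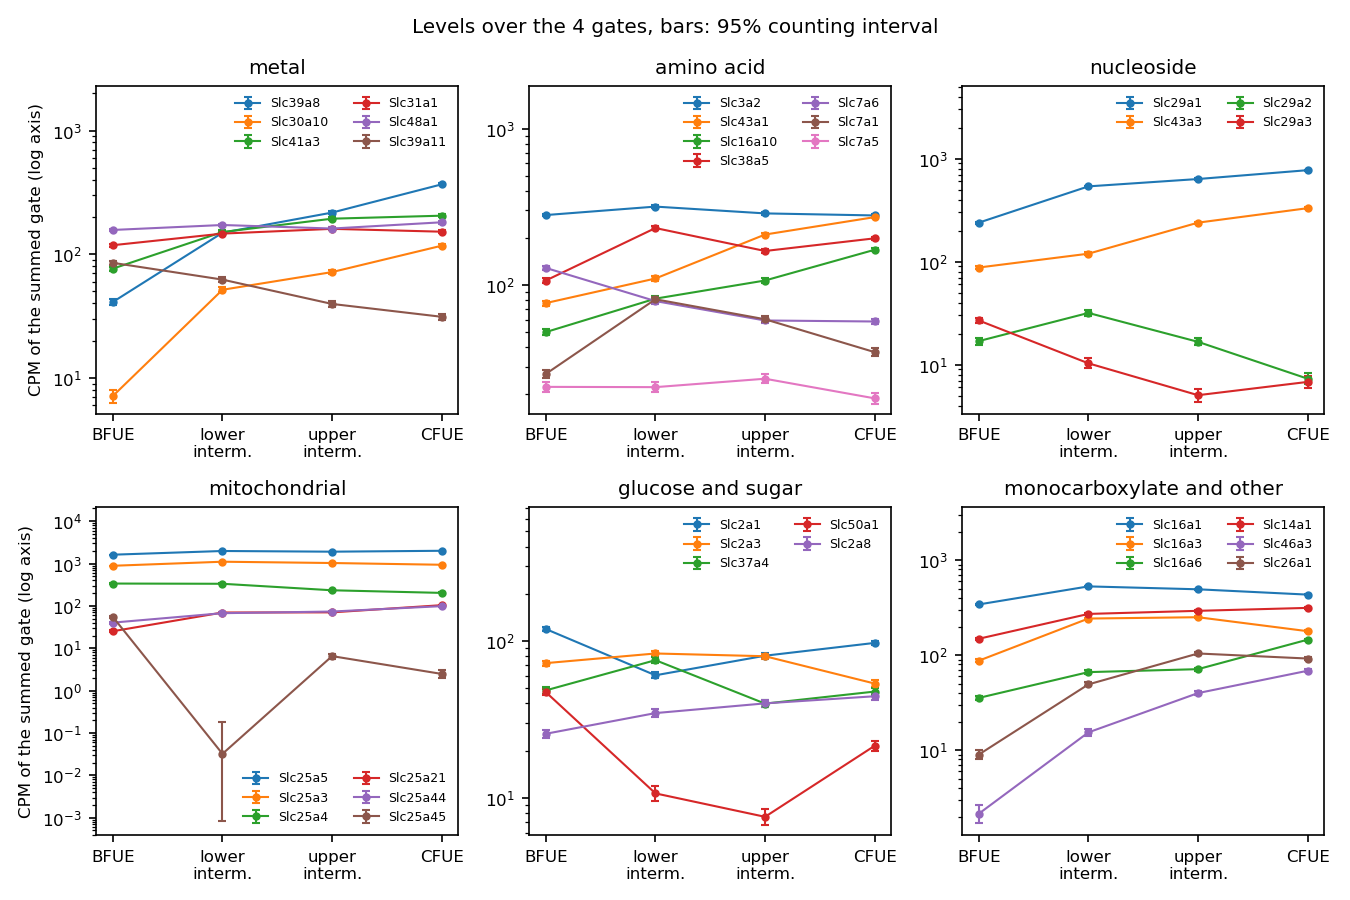
CPM of the summed gate (vertical log axis) over the 4 gates (horizontal axis) for named members, 1 line per gene, with 95% counting intervals as bars. Slc39a8, Slc30a10 and Slc29a1 are higher at every step, Slc7a1 and Slc29a2 peak in the lower intermediate gate, and Slc2a1 is lowest there.

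The largest ratio of all members belonged to Slc46a3 (chr5:147878437-147894815), a lysosomal membrane carrier related to the proton-coupled folate carrier, at 2.15 CPM in BFUE, 15.4 in the lower intermediate, 39.97 in the upper intermediate and 68.7 in CFUE. CFUE exceeded BFUE 31.98-fold (95% counting interval 25.7 to 40.4), with 23.1 and 34.7 in the 2 sets of rows and 31.04 without the Cd34-high cells. BFUE held 82 reads in 7 of 23 cells, and CFUE had reads in 20 of 23, with a median cell of 60.2 CPM. Each of the 3 steps was higher, 7.18-fold, 2.59-fold and 1.72-fold.

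In the vitamin and lipid class, 2 of the 10 were at least 1.5-fold higher in CFUE than in BFUE, Slc46a3 and Slc19a2, and 5 at least 1.5-fold lower. All rows gave 13.9 and 29.5%, and with members at 50 CPM or more 2 of the class were lower. The class had 521, 533, 471 and 413 CPM in sum. Slc19a1, the reduced folate carrier, made up 51.1% of the class and was highest in the lower intermediate gate, at 214, 328, 264 and 183 CPM. The sodium-dependent carrier of biotin and pantothenate, Slc5a6, had the same shape at 22.9, 40.2, 18.04 and 18.1 CPM. Slc19a2, a thiamine carrier, was at 39.1, 28.4, 42.2 and 59.03 CPM, a ratio of 1.51 (95% counting interval 1.41 to 1.62) that lies at the limit of 1.5-fold. The choline carrier Slc44a2 was at 122, 34.7, 38.96 and 32.5 CPM, lower by 3.75-fold (95% counting interval 3.52 to 4.01) and by 2.697-fold without the Cd34-high cells, with the whole difference already in the lower intermediate gate. The riboflavin carrier Slc52a2 was lower at every step at 55.8, 42.95, 30.2 and 23.6 CPM, but the 2 sets of rows gave ratios of 0.202 and 0.833. Slc23a2, an ascorbate carrier, had 83.1% of its BFUE reads in Cd34-high cells, and its ratio of 0.246 became 1.002 without them. The fatty acid carrier Slc27a1 stood at 11.6 CPM at the start and at 0.141 CPM in CFUE, where it had 5 reads.

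Amino acid carriers, 19 genes with 1618, 1872, 1737 and 1808 CPM in sum, kept a total within 1.5-fold with single members higher or lower, and 4 of the 19 were at least 1.5-fold higher in CFUE than in BFUE and 4 at least 1.5-fold lower. With TMM or DESeq2 scaling 2 were lower. Those level over the gates were the heavy chain Slc3a2, which pairs with several light chains, at 279.9, 317, 287 and 278 CPM, the glutamine carrier Slc1a5 at 217, 216, 198 and 194 CPM and the leucine carrier Slc7a5, a light chain of Slc3a2, at 22.3, 22.2, 25.1 and 18.8 CPM. Slc3a2 stood 13.2 times above Slc7a5 per length in BFUE and 15.5 times in CFUE.

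Of the 4 higher amino acid carriers, Slc43a1 and Slc16a10 take large neutral or aromatic amino acids. Slc43a1, which moves leucine and other large neutral amino acids without a heavy chain, was at 76.6 CPM in BFUE, 110 in the lower intermediate, 210.1 in the upper intermediate and 272 in CFUE, 3.54-fold (95% counting interval 3.4 to 3.69) between the ends. Slc16a10, a carrier of aromatic amino acids, was at 49.97, 81.8, 107 and 168 CPM and 3.36-fold (95% counting interval 3.19 to 3.54) higher in CFUE. Slc7a6, a light chain of Slc3a2 that exchanges cationic for neutral amino acids, went the other way at 128, 78.9, 59.3 and 58.4 CPM, lower by 2.2-fold (95% counting interval 2.09 to 2.32). Per length, Slc43a1 was therefore at 0.477 times the level of Slc7a6 in BFUE and at 3.72 times in CFUE. These 3 genes kept their direction in both sets of rows and without the Cd34-high cells, where the ratios were 3.35, 3.46 and 0.576.

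Slc6a9, the glycine carrier, whose substrate is the amino acid that starts heme synthesis, was low but higher at every step, at 3.35, 7.502, 11.8 and 31.6 CPM. The ratio was 9.44-fold (95% counting interval 7.86 to 11.4), from 128 reads in 5 of 23 BFUE cells to reads in 20 of 23 CFUE cells. In rows E to H the ratio was 5.98, where nearly all BFUE reads lay, and 30.3% of its exon length overlaps genes on the other strand, whose reads cannot be told apart where strand was not counted. Slc38a5, a carrier of glutamine and related amino acids, was at 107, 231, 165 and 199 CPM, a ratio of 1.86. Without the Cd34-high cells, in which it was at 2.004 CPM against 155 in the other BFUE cells, the ratio was 1.28 and no longer past 1.5-fold. Slc7a1, the arginine and lysine carrier, peaked in the lower intermediate gate at 27, 81.01, 60.4 and 37.2 CPM, 3-fold (95% counting interval 2.79 to 3.23) above BFUE. The Cd34-high cells ranged from 0 to 39.86 CPM of it and the other BFUE cells from 0.6756 to 88.49 CPM. A single lower intermediate cell stood at 300.6 CPM, above the next at 146.3 CPM. No ratio of this step without these cells is given here. Slc43a2 stood at 19.01, 1.06, 1.098 and 0.874 CPM, with 78.5% of BFUE reads in the Cd34-high cells. Of the other amino acid carriers, Slc38a10 and Slc15a4 were at least 1.5-fold lower in CFUE than in BFUE. The other members named next were within 1.5-fold between the ends. The sodium-coupled glutamine and alanine carriers Slc38a1 and Slc38a2 were at 159, 199, 179.6 and 127 CPM and at 183, 184, 162 and 147 CPM, both within 1.5-fold between the ends. Slc38a10 was at 171, 138, 104 and 111 CPM. The taurine carrier Slc6a6 was level at 51.3, 58.6, 62.2 and 51.7 CPM, and the lysosomal amino acid sensor Slc38a9 was between 19.9 and 29.9 CPM. Slc15a4, a lysosomal carrier of histidine and peptides, gave opposite directions in the 2 sets of rows, 1.61 and 0.251. Slc7a11, the cystine carrier, is no member, with at most 1.46 CPM.

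Glucose and sugar carriers were lower in sum after BFUE, at 367, 288, 250.1 and 270 CPM, and 1 of the 7 were at least 1.5-fold higher in CFUE than in BFUE and 3 at least 1.5-fold lower. Without the shallow CFUE cell 2 were higher. Slc2a1, the widespread facilitative glucose carrier, was lowest in the lower intermediate gate, at 119 CPM in BFUE, 60.5 in the lower intermediate, 80.6 in the upper intermediate and 97.3 in CFUE. The first step was lower by 1.97-fold (95% counting interval 1.87 to 2.08), and CFUE was within 1.5-fold of BFUE at 0.816. Slc2a3, a high-affinity glucose carrier, had its highest values where Slc2a1 was lowest, at 72.3, 83.3, 80.03 and 53.6 CPM. Per length, Slc2a1 exceeded Slc2a3 by 3.41, 1.5, 2.08 and 3.75 times in gate order. Slc37a4, which brings glucose 6-phosphate into the endoplasmic reticulum, was highest in the lower intermediate gate at 48.5, 75.5, 39.9 and 47.6 CPM. Slc50a1 was at 47.2, 10.7, 7.58 and 21.5 CPM and Slc37a1 at 28.6, 10.1, 1.51 and 5.36 CPM. Both were lowest in the upper intermediate gate and higher again in CFUE, without reaching the BFUE level. Slc45a3 was at 25.7, 13.7, 0.412 and 0.0846 CPM, with 3 reads in CFUE, a ratio of BFUE to CFUE of 304 (95% counting interval 104 to 1475). Its BFUE reads lay mostly in the cells without high Cd34, at 37.4 CPM there and 0.167 CPM in the Cd34-high cells. Slc2a8, an intracellular hexose carrier, was the higher one at 25.6, 34.7, 40.1 and 44.5 CPM, with row sets at 1.005 and 2.79.

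The 29 mitochondrial carriers took the most reads, 4325, 5057, 4694 and 4739.5 CPM, with 39.95% of them from Slc25a5, and 5 of the 29 were at least 1.5-fold higher in CFUE than in BFUE and 8 at least 1.5-fold lower. The most abundant members were level, Slc25a5 at 1620.5, 1982, 1909 and 2005 CPM, Slc25a3 at 887, 1106, 1031 and 938 CPM and Slc25a1 at 234, 317, 265 and 236 CPM. Slc25a4 was lower at every step at 338, 334, 234 and 203 CPM, lower by 1.66-fold (95% counting interval 1.61 to 1.71) at the end, with a ratio of 0.861 (rows A to D) and 0.393 (rows E to H). Per length, Slc25a5 exceeded Slc25a4 by 6.86 times in BFUE, 8.497 and 11.7 times in the intermediate gates and 14.1 times in CFUE.

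On the higher side, Slc25a21, a carrier of oxodicarboxylates, was at 25.3, 69.9, 70.5 and 104 CPM, 4.12-fold (95% counting interval 3.84 to 4.43) between the ends and 2.85 without the Cd34-high cells, in which it was at 0.668 CPM. Slc25a44, a carrier of branched-chain amino acids, was at 40.4, 67.5, 73.7 and 98.9 CPM, 2.45-fold (95% counting interval 2.31 to 2.603). Its median was 1.589 CPM in the Cd34-high cells and 51.45 CPM in the other BFUE cells. The lowest log2 ratio in any alternative was 0.9866. Slc25a42, a coenzyme A carrier, was at 15.2, 34.5, 31 and 41.9 CPM, and Slc25a40 and Slc25a16 were near the threshold. Slc25a51, the NAD carrier, went from 173 to 253 CPM, a ratio of 1.47 just under 1.5-fold. Among the lower ones, the glutamate carrier Slc25a22 was at 62.8, 45.1, 36.4 and 34.2 CPM and lower at every step. Most other mitochondrial carriers of amino acids, cofactors and dicarboxylates had no shared order over the gates. The carnitine carrier Slc25a20 was at 46.6, 32.1, 23.1 and 33.5 CPM and the folate carrier Slc25a32 at 47.2, 52.5, 53.04 and 32.8 CPM, both within 1.5-fold between the ends. The aspartate and glutamate exchangers Slc25a12 and Slc25a13 were at 70.7, 62.5, 88.05 and 97.5 CPM and at 64.03, 63.4, 51.3 and 56.8 CPM. The oxoglutarate carrier Slc25a11 was at 158, 142, 130.1 and 119 CPM and the dicarboxylate carrier Slc25a10 at 72.8, 74.3, 78.4 and 64.7 CPM, both level. The ornithine carrier Slc25a15 had a ratio of 3.304 (rows A to D) and 0.102 (rows E to H), so its direction was not stable between the sets of rows. Slc25a26, which brings S-adenosylmethionine into mitochondria, was at 24.6, 10.01, 10.1 and 13 CPM. The ATP-magnesium and phosphate carriers Slc25a24 and Slc25a25 were at 18.3, 11.98, 5.44 and 8.21 CPM and at 13.4, 30.3, 21.2 and 8.07 CPM, lowest and highest in an intermediate gate. Slc25a53, just inside the threshold, had ratios of 0.311 and 2.98 in the 2 sets of rows, which point in opposite directions.

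Slc25a45 (chr19:5877808-5885878) was the one mitochondrial member at over 50 CPM in BFUE that was nearly without reads in a later gate, at 55.05 CPM in BFUE, 0.0322 in the lower intermediate, 6.53 in the upper intermediate and 2.48 in CFUE. The lower intermediate value is 1 read. In BFUE 93.3% of its reads came from the Cd34-high cells, which stood at 164 CPM against 5.34 in the other 15. Without those 8 cells the BFUE level was 2.15 times that of CFUE, in place of 22.2 times.

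Organic anion carriers summed to 568, 924, 905 and 848 CPM, and 2 of the 7 were at least 1.5-fold higher in CFUE than in BFUE and 1 at least 1.5-fold lower. Without the cell with most reads of each gene none was lower. Slc16a1, the main lactate and pyruvate carrier, made up 55.6% of them and was highest in the intermediate gates, at 343, 531, 495 and 435 CPM. Slc16a3, a lactate carrier known from glycolytic cells, was at 87.7, 244, 252 and 179 CPM, 2.04-fold (95% counting interval 1.96 to 2.13) between the ends and 1.52 without the Cd34-high cells, in which it was at 22.3 CPM. Its first step was 2.78-fold, and CFUE was below the upper intermediate gate at 0.713. Per length, Slc16a1 exceeded Slc16a3 by 4.697 times in BFUE and 2.92 times in CFUE. Slc16a6, a carrier of ketone bodies, was higher at every step at 35.6, 66.5, 71.4 and 146 CPM, 4.103-fold (95% counting interval 3.87 to 4.36), although 23.5% of its exon length overlaps other genes, among them Amz2 and Arsg.

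Of 12 ion carriers, 5 of the 12 were at least 1.5-fold higher in CFUE than in BFUE and 5 at least 1.5-fold lower. Slc26a1 (chr5:108669878-108675569), an exchanger of sulfate and oxalate, was at 9.01 CPM in BFUE, 49.4 in the lower intermediate, 104 in the upper intermediate and 92.4 in CFUE. This is 10.2-fold (95% counting interval 9.17 to 11.5) between the ends and 7.1 without the Cd34-high cells, in which it was at 0.251 CPM. Its lowest, median and highest cells were 0, 0.624 and 114 CPM in BFUE and 12.6, 104 and 262 CPM in the upper intermediate gate. Both sodium-coupled phosphate carriers were higher after BFUE, Slc20a1 at 59.9, 91.7, 95.4 and 93.1 CPM and Slc20a2 at 22.1, 36.9, 31.2 and 34.95 CPM, but in rows E to H their ratios were 1.14 and 0.844. The potassium chloride cotransporter Slc12a4 was at 19.8, 36.9, 41.2 and 37.2 CPM and its relative Slc12a7 at 25.1, 12.4, 6.78 and 10.6 CPM, so the pair was ordered in opposite ways. The anion exchanger Slc4a2 was at 26.1, 4.06, 5.88 and 6.51 CPM. Slc12a9 had no read in CFUE, at 16.2 CPM in BFUE, which with 3 reads as the floor is at least 191-fold lower. The endosomal exchanger Slc9a9 had 90.3% of its BFUE reads in the Cd34-high cells.

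In the class of organic cation and other carriers, 4 of the 10 were at least 1.5-fold higher in CFUE than in BFUE and 5 at least 1.5-fold lower. Without the Cd34-high cells 3 were lower. Slc14a1, the urea carrier that bears the Kidd blood group, made up 72.5% of the class and was higher at every step, at 149, 272, 294 and 315 CPM. The Cd34-high cells were at 2.84 CPM and the other BFUE cells at 216, and the ratio of 2.11 became 1.46 without the former. Slc22a4, the ergothioneine carrier, was higher at every step at 9.69, 16.97, 25.9 and 46.3 CPM, 4.78-fold (95% counting interval 4.27 to 5.37), and 7.36 without the Cd34-high cells, in which it was higher than in the rest. Slc22a5, the carnitine carrier next to it in the family, went the other way at 18.2, 15.7, 9.802 and 3.19 CPM. Slc22a3, a carrier of monoamines, was at 40.4, 9.76, 2.28 and 1.1 CPM and was read in BFUE cells with and without high Cd34, at 51.6 and 35.2 CPM. Slc18a1, a vesicular monoamine carrier, had 99.8% of its BFUE reads in the Cd34-high cells.

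The class of nucleotide sugar carriers was set by the Slc35 family alone, so it also holds members with other substrates, such as Slc35b2. The class differed little, at 1236, 1416, 1324 and 1261 CPM in sum, with a ratio of 1.02 between the ends. Of the 18, 3 were at least 1.5-fold higher in CFUE than in BFUE and 6 at least 1.5-fold lower. These are 16.7 and 33.3%, near the 13.9 and 29.5% of all rows. Slc35a4 made up 39.8% of the class and was level at 429, 578, 550 and 528 CPM, as was Slc35b2, the carrier of the sulfate donor, at 152, 155, 142 and 124 CPM. Slc35c1, the GDP-fucose carrier, was at 112, 108, 104 and 54.8 CPM, with nearly all of its difference of 2.04-fold (95% counting interval 1.93 to 2.15) between the upper intermediate gate and CFUE. The CMP-sialic acid carrier Slc35a1 was at 49.7, 72.02, 45.5 and 61.5 CPM, a mixed order. Slc35e2 was higher at every step, at 68.5, 82.8, 95.8 and 119 CPM, but its ratio of 1.74 was 1.38 without the Cd34-high cells. The UDP-galactose carrier Slc35a2 was at 19.1, 34, 23.97 and 38.3 CPM. Slc35d3 was at 19.5 CPM in BFUE and had 2 reads in each other gate.

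The last 4 symbols name proteins that bind or neighbour a carrier and carry nothing themselves. Slc9a3r1 and Slc9a3r2 are scaffold proteins, Slc4a1ap is an adaptor protein and Slc7a6os is a neighbour of Slc7a6, and they were set apart after values were seen. Slc9a3r1 was lower at every step, at 139 CPM in BFUE, 57.2 in the lower intermediate, 26.1 in the upper intermediate and 20.6 in CFUE, lower by 6.74-fold (95% counting interval 6.24 to 7.29), or 3.93-fold without the Cd34-high cells. It had the lowest share of cell pairs with CFUE above BFUE, 7.94%. Slc9a3r2 was at 25.6, 9.85, 2.39 and 1.13 CPM, with 86.5% of BFUE reads in the Cd34-high cells.

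The Cd34-high cells carried part of the BFUE level of many genes. Without them 34 of the 139 genes were higher in CFUE and 43 lower, beside 13.7 and 26.8% of rows, and the median log2 ratio was -0.05. Of the 48 lower genes 38 were also lower without these cells, and of the 32 higher genes 27 were also higher. In 8 carriers at least 75% of BFUE reads came from the Cd34-high cells, which is 5.76% of carriers and 5.06% of all rows at the threshold. They are Slc18a1, Slc25a45, Slc9a9, Slc9a3r2, Slc23a2, Slc22a21, Slc43a2 and Slc39a6, all on the lower side. In the other direction, Slc38a5, Slc14a1, Slc25a21, Slc26a1, Slc30a10 and Slc45a3 were at or under 2.84 CPM in the Cd34-high cells and between 10.2 and 216 CPM in the other BFUE cells. Set directly against the other 15 BFUE cells, the Cd34-high cells had 36 carriers higher and 45 lower by 1.5-fold, or 25.9 and 32.4%, where all rows gave 25.4 and 27.7%. The part of these cells in other ratios was not tested beyond leaving them out, and the megakaryocyte and hepatoblast markers of the other 15 BFUE cells remain in those ratios.

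**Figure D4:**
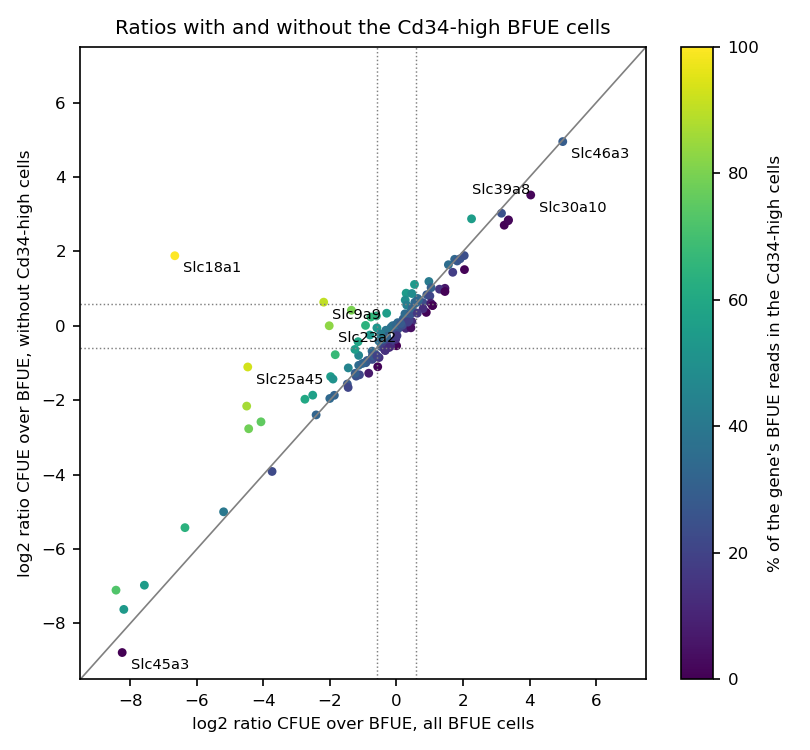
Log2 ratio of CFUE over BFUE with all BFUE cells (horizontal axis) and without the Cd34-high ones (vertical axis), 1 point per gene, with the line of equality, dotted lines at 1.5-fold and colour for the percent of BFUE reads from these cells. Slc25a45 lies far above the line and most named genes of the higher side lie near or below it.

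Single cells overlapped between the ends for every carrier, so no carrier had all CFUE cells above or below all BFUE cells. This share of 0% is near the 0.147% of the 8856 rows. The CFUE cell was higher in at least 90% of pairs for 5 genes, Slc39a8 (99.1%), Slc29a1 (93.95%), Slc30a10 and Slc26a1 (92.7% each) and Slc43a3 (91.2%), which is 3.597% of the carriers beside 1.41% of rows. It was higher in at most 10% of pairs for 1 gene, Slc9a3r1, or 0.719% of the carriers beside 1.47% of rows. Against the other 15 BFUE cells alone, the same 5 shares were 98.6, 92.5, 90.9, 90.4 and 90.7%. For 112 of the 139 carriers (80.6%) the share lay between 25 and 75%, near the 84.3% of rows. A cell had reads of a median of 103 of the 139 genes in BFUE, 107 and 106.5 in the intermediate gates and 102 in CFUE, so the number of carriers read per cell was close between gates.

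**Figure D5:**
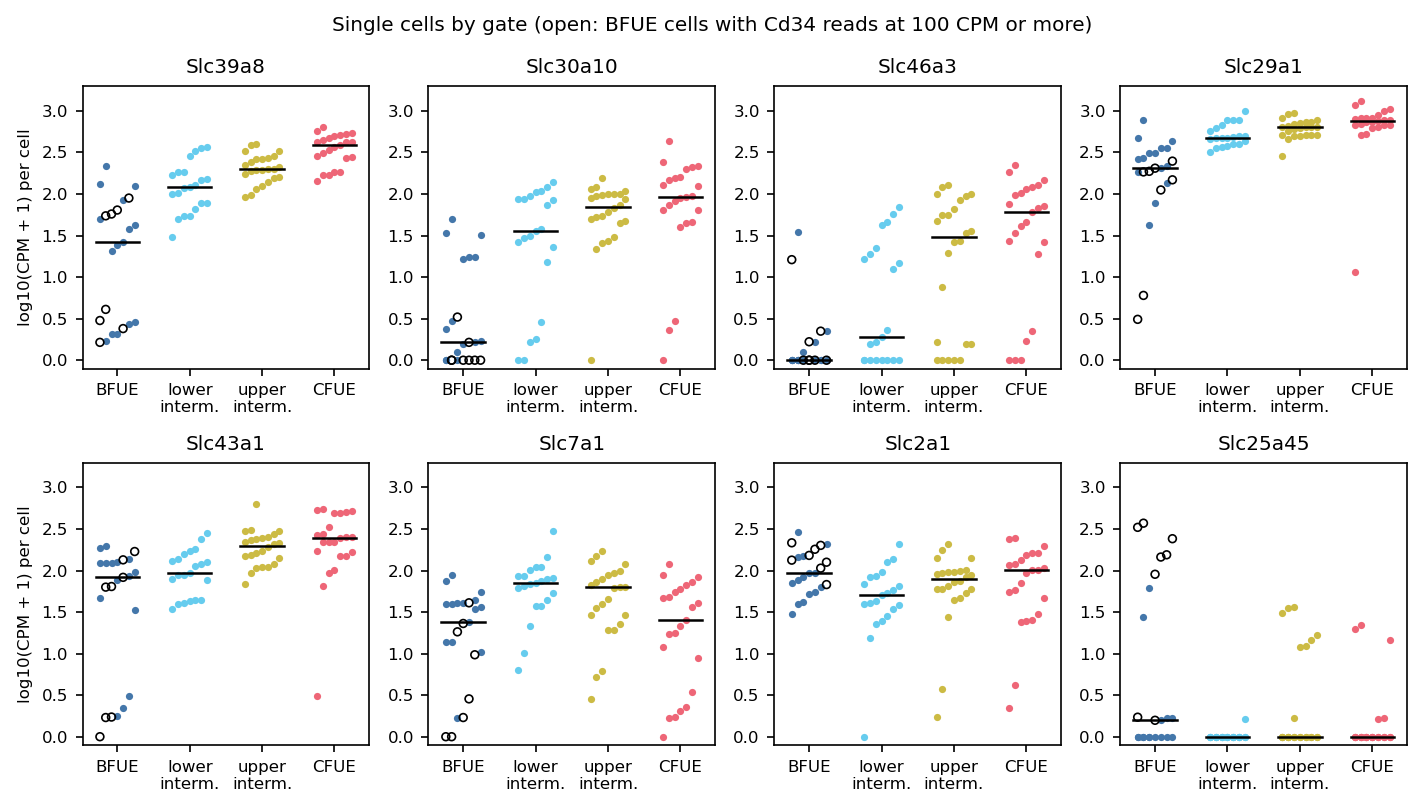
Log10 of CPM plus 1 in single cells (vertical axis) by gate (horizontal axis) for selected genes, 1 point per cell, open points for the Cd34-high BFUE cells and a bar at the median of each gate. For Slc39a8 all 23 CFUE cells lie at 144 CPM or more, and the BFUE cells reach up to 217 CPM.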

How the data were processed

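The deposited table holds read counts per gene for 96 wells with 1 sorted cell each. Reads had been aligned by the authors to GRCm38 (STAR 2.4) and assigned to genes by featureCounts, per the submitters' processing notes, and were left as raw counts. Which annotation and strand setting they used, and how shared reads were handled, is not given in the sources used here. Names in the header stand 1 cell off from the columns and were matched to them by order. Of the 139 genes, 12 share 10% or more of their exon length with another gene, and their values are uncertain.

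A cell was used from 50000 reads and 1000 genes on (91 of 96). Counts of a gate were summed and expressed as CPM with exact Poisson intervals. Ratios have exact conditional binomial (Clopper-Pearson) intervals, all at 95%. For ratios, 3 counts replaced a count of 0, and gene rows with no more than 3 counts in both gates got none. With 1 sample per gate no test was made, and differences were counted from 1.5-fold. Shares of rows refer to the 8856 rows with 10 CPM or more in a gate. Wells were sorted as single cells and no doublet caller was run. Exon lengths and overlaps came from GENCODE release M21, which holds 99.7% of the identifiers. Substrate classes follow the gene families.

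The members, classes and lists were chosen with earlier results of these data known. Named were the 3 genes per class highest per length. Also named were up to 4 per class and direction that had 50 CPM or more, a 2-fold difference in summed and in per-cell CPM, reads in most cells, no dominant cell and an equal direction in rows A to D as in rows E to H of the plate. Genes 1.5-fold above or below both ends in an intermediate gate at 50 CPM or more, those next to the threshold and a panel of carriers completed the rule. Further genes were named after their values were seen. Some genes are not reported here. Alternatives were TMM factors (edgeR 4.0.16) and DESeq2 1.42.0 size factors in R 4.3.3, other filters of cells and genes, each set of 4 plate rows, thinning to 500000 reads and leaving out cells. Ratios and intervals were tested on gate sums simulated with counting error alone. That test cannot show how they behave under the spread between cells. Software was Python 3.11.15 with scipy 1.17.1, pandas 2.3.3, numpy 2.4.6 and matplotlib 3.10.9.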

Additional observations from a re-analysis of the deposited data

How the results depend on the processing

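Counts are of genes past 1.5-fold from BFUE to CFUE unless said, medians are on the log2 scale, and counts not given here stayed within 1.5 times those of the report. With fewer or more genes counted the totals move by construction; otherwise the cause was not tested. With TMM scaling, there were 2 amino acid carriers lower. With DESeq2 size factors, there were 2 amino acid carriers lower. Without the CFUE cell under 1000000 reads, there were 2 glucose and sugar carriers higher. In plate rows A to D, there were 22 higher (upper to lower intermediate), 0 glucose and sugar carriers higher, 10 mitochondrial carriers higher, 5 nucleotide sugar carriers higher, 3 organic anion carriers lower, 1 gene named for a carrier higher and 25 lowest in an intermediate gate. In plate rows E to H, there were 3 ion carriers higher and a reversed Slc25a53 log2 ratio of 1.57. Without the Cd34-high BFUE cells, there were 3 organic cation and other carriers lower. Without the cell with most reads of each gene, there were 0 organic anion carriers lower and 1 vitamin and lipid carrier higher. With no filter on low values, there were 227 genes in all, 49 higher, 101 lower, a median of -0.45, 54 higher (lower intermediate to BFUE), 71 lower (lower intermediate to BFUE), 39 higher (upper to lower intermediate), 58 lower (upper to lower intermediate), 38 higher (CFUE to upper intermediate), 46 lower (CFUE to upper intermediate), 4 glucose and sugar carriers higher, 8 glucose and sugar carriers lower, 7 amino acid carriers higher, 14 amino acid carriers lower, 6 nucleoside carriers lower, 15 mitochondrial carriers lower, 10 nucleotide sugar carriers lower, 8 ion carriers higher, 14 ion carriers lower, 7 organic anion carriers lower, 4 vitamin and lipid carriers higher, 8 vitamin and lipid carriers lower, 9 organic cation and other carriers lower, 27 lower at every step, 32 highest in an intermediate gate and 30 lowest in an intermediate gate. At 50 CPM or more, there were 64 genes in all, 18 higher, 11 lower, a median of 0.20, 18 higher (lower intermediate to BFUE), 5 lower (lower intermediate to BFUE), 5 higher (upper to lower intermediate), 4 lower (upper to lower intermediate), a median (upper to lower intermediate) of -0.057, 5 higher (CFUE to upper intermediate), 4 lower (CFUE to upper intermediate), 0 glucose and sugar carriers higher, 0 glucose and sugar carriers lower, 2 amino acid carriers lower, 0 nucleoside carriers lower, 1 metal carrier lower, 2 mitochondrial carriers higher, 3 mitochondrial carriers lower, 1 nucleotide sugar carrier higher, 2 nucleotide sugar carriers lower, 2 ion carriers higher, 0 ion carriers lower, 0 organic anion carriers lower, 2 vitamin and lipid carriers lower, 1 organic cation and other carrier higher, 0 organic cation and other carriers lower, 1 gene named for a carrier lower, 7 lower at every step, 3 highest in an intermediate gate and 2 lowest in an intermediate gate. At 10 CPM or more in the mean of the gates, there were 31 lower, 16 lower (lower intermediate to BFUE), 9 higher (upper to lower intermediate), 19 lower (upper to lower intermediate), 12 lower (CFUE to upper intermediate), 3 nucleotide sugar carriers lower, 2 ion carriers lower, 3 vitamin and lipid carriers lower and 2 organic cation and other carriers lower. With members from rows A to D and ratios from E to H, there were a median (upper to lower intermediate) of -0.18, 3 organic cation and other carriers lower and a reversed Slc25a53 log2 ratio of 1.57. With members from rows E to H and ratios from A to D, there were 22 higher (upper to lower intermediate), a median (upper to lower intermediate) of -0.019, 0 glucose and sugar carriers higher, 5 glucose and sugar carriers lower, 9 mitochondrial carriers higher, 5 nucleotide sugar carriers higher, 3 organic anion carriers lower, 3 organic cation and other carriers lower, 1 gene named for a carrier higher, 10 lower at every step and 22 lowest in an intermediate gate. Without the Cd34-high BFUE cells and with members chosen again (an alternative added after seeing the data), there were 18 lower (lower intermediate to BFUE), 2 nucleotide sugar carriers lower and 3 organic cation and other carriers lower. TMM moved the median log2 ratio of all rows from BFUE to CFUE by 0.11 and DESeq2 size factors by 0.10. Of the 53 genes chosen by the rule for named genes, 34 were past 1.5-fold, 9 of these were under it in at least 1 alternative and 1 reversed. The 9 are Slc38a5, Slc12a4, Slc39a11, Slc25a4, Slc20a1, Slc7a6os, Slc52a2, Slc14a1 and Slc19a2. Genes named after their values were seen are not in these counts, and some of them, such as Slc35e2, Slc23a2 and Slc39a3, also lost the difference or changed direction, as the report gives for each. No paired analysis was possible because each gate is 1 sample. Depth limits genes with few reads, such as Slc45a3 in CFUE, and for some genes, such as Slc39a11, the sets of plate rows differed by more than the counting interval.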
